A study of Mus musculus with 10 samples.

Results

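Transcripts of laminin chains and of the proteins that tie laminins into basement membranes were measured in mouse hippocampus after subarachnoid hemorrhage (SAH), by RNA sequencing of bulk tissue. The genes were the 10 whose name in the count tables was Lama1, Lama2, Lama4, Lama5, Lamb1, Lamb2, Lamc1, Nid1, Nid2 or Hspg2, of 24391 gene names in all, and each of the 10 was found. Young adult male mice were used, of a strain that the study's methods print as C56BL/6J, and no transgene is named for any group. The 4 SAH mice had the circle of Willis perforated on one side by a filament passed up inside the artery, were kept only where blood flow to the cortex fell, and were sampled 4 days later. In the 3 Sham mice the filament was advanced until it met resistance and withdrawn without perforation, also 4 days before sampling, and the 3 Naive mice had no operation. Each library came from both hippocampi of 1 mouse, so n counts mice, and the hippocampus lies away from the vessel that bled. Sham and Naive mice were pooled as the control group (n = 6) for the first comparison, which asks how the tissue differed after a bleed, and the 3 groups were then compared in pairs to separate the bleed from the operation.

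A basement membrane is a thin sheet of extracellular matrix. Laminins, each built of one alpha, one beta and one gamma chain, polymerise into one of its networks and collagen IV forms another; nidogens bind both, and perlecan, a heparan sulfate proteoglycan encoded by Hspg2, binds laminin and nidogen and holds growth factors. In brain, basement membranes wrap the vessels and line the pial surface. The endothelial membrane is known for the alpha chains encoded by Lama4 and Lama5, and the membrane laid on the side of the astrocyte endfeet for those encoded by Lama1 and Lama2. Cells hold on to laminin through integrins and through dystroglycan, which links to the dystrophin complex inside the cell.

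Libraries held 19743388 to 27254655 counts assigned to genes, and the 10 genes together took 0.0154% to 0.0235% of them. Each value below is in CPM, counts per 1000000 counts of effective library size, unless another scale is named. Of the 12 pairs of libraries within a group, none was alike within sampling noise. The summed level of 10 neuronal markers, among them Neurod6 and Prox1 of hippocampal principal neurons, was 12334 to 13934 CPM in every mouse. The summed level of 10 choroid plexus markers was uneven: it was 1258 CPM in SAH mouse 3, 890.2 CPM in SAH mouse 4 and 855.7 CPM in Sham mouse 7, against 54.8 to 227.9 CPM in the other mice, so results are also given without these 3. Those fits kept SAH mice 1 and 2, Sham mice 5 and 6 and the 3 Naive mice. SAH mice 3 and 4 also had the highest Lama5, Lamb2, Lamc1 and Hspg2 levels of all mice. Leaving them out dropped those values too, and the part of choroid plexus tissue in them was not tested.

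In mm9 coordinates the alpha chain genes were Lama1 at chr17:68046605-68171985 on the plus strand, Lama2 at chr10:26701092-27336748 on the minus strand, Lama4 at chr10:38685321-38829994 on the plus strand and Lama5 at chr2:179911078-179960564 on the minus strand. The beta chain genes were Lamb1 at chr12:31950159-32014504 and Lamb2 at chr9:108382193-108392861, both on the plus strand, and the gamma chain gene was Lamc1 at chr1:155066052-155179916 on the minus strand. Nid1 at chr13:13529869-13604542, Nid2 at chr14:20570479-20631009 and Hspg2 at chr4:137024718-137126545 were on the plus strand. Reads were counted over exons with their strand. No member shared exon bases on its own strand with another gene, and Nid2 overlapped 2700060E02Rik on the opposite strand.

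Promoter windows, from 250 bases before to 50 bases after the annotated start, were matched for 6 of the 10 genes in a RefSeq table of build GRCm38.p6. The windows of Lamb1 and Lamb2 are shown because these genes encode alternative beta chains with unlike values in the SAH mice, and those of Lama5 and Nid1 because they had the largest fold changes among the members. Capitals mark the GC box GGGCGG on either strand. The Lamb1 window is chr12:31265043-31265342, plus strand; the Lamb2 window is chr9:108479612-108479911, plus strand; the Lama5 window is chr2:180225810-180226109, minus strand; the Nid1 window is chr13:13437352-13437651, plus strand. These coordinates belong to GRCm38.p6 and cannot be set against the mm9 positions above.
Lamb1: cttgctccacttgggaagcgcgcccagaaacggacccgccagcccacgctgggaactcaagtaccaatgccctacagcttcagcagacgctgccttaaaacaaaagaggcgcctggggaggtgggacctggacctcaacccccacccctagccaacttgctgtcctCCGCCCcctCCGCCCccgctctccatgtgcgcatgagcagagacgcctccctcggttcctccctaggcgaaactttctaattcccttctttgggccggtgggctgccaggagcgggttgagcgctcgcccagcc
Lamb2: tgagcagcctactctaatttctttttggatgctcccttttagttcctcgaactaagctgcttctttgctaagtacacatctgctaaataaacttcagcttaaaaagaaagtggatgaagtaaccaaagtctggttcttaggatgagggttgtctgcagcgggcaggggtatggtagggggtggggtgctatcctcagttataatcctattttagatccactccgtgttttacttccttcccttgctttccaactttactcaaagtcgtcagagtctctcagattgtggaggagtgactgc
Lama5: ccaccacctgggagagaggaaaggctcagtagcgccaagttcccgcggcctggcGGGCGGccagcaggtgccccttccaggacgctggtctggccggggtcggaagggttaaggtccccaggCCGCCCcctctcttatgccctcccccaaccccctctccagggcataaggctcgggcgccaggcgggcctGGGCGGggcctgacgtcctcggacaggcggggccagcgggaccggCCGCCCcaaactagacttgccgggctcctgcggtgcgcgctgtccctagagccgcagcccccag
Nid1: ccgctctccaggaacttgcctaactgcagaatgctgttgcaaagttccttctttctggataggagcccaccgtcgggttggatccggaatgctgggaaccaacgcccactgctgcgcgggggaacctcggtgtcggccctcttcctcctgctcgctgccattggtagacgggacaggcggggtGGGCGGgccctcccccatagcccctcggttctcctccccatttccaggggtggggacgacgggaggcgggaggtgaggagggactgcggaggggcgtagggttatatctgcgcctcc
The GC box was found 4 times in the Lama5 window, 2 times in that of Lamb1, 1 time in that of Nid1 and not in that of Lamb2. It was found 5 times in the Hspg2 window and 1 time in that of Lama2, and 35.7% of all 32851 windows held it. The AP-1 motif TGANTCA on either strand, in 7.81% of all windows, and TATAAA on the gene's strand, in 8.32%, were found in none of the 6 windows. Of the bases, 72.7% were G or C in the Lama5 window and 44% in the Lamb2 window, against a median of 52.7% over all windows. These matches describe the letters of the windows and are not evidence of binding.

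Levels between genes were compared per kb of gene model. In the control mice Lamb1 was highest with a mean of 7.20 CPM per kb, followed by Lamc1 at 5.25, Lamb2 at 4.22 and Lama2 at 2.19 CPM per kb. Next came Nid1 at 1.39, Lama4 at 0.949, Nid2 at 0.803, Lama5 at 0.603, Hspg2 at 0.559 and Lama1 at 0.301 CPM per kb. The ranges over the 6 control mice overlapped between Nid1 and Lama4, Lama4 and Nid2, Nid2 and Lama5, and Lama5 and Hspg2, and the other neighbours in this order did not overlap. The genes of the endothelial alpha chains, Lama4 and Lama5, thus lay between those of the astrocyte-side chains, below Lama2 and above Lama1.

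After SAH, 4 of the 10 genes were higher than in the control mice: Nid1 and Nid2, which encode both nidogens, Lamb2, a beta chain of vascular laminins, and Lama5, an endothelial alpha chain. The 4 rises were 1.48-fold to 1.76-fold, and none of the 10 genes was lower. Over all genes tested 3.13% were higher and 1.54% lower by the same rule, an adjusted p under 0.10 from edgeR's quasi-likelihood test with Benjamini-Hochberg adjustment over 14993 genes. The log2 fold change was above 0 for 10 of 10 members, with a median of 0.54, and for 49.1% of all genes, with a median of -0.00237. Unadjusted p was under 0.05 for 8 of the 10, against 17.0% of all genes. In bulk tissue, more cells of a type and more RNA per cell cannot be told apart, which holds for every difference below. In a fit with only Sham mice as control, edgeR called 0 of the 10 and, of 15051 genes tested, 12 as higher and 0 as lower, while 6 of the 10 had an unadjusted p under 0.05. With only Naive mice as control it called 3 of the 10 as higher, and 201 of 14954 genes tested. Without SAH mouse 1 it called 7 of the 10 as higher, and 596 of 15123 genes, so calls over all genes were also more frequent. Without the 3 mice with high choroid plexus markers it called 3 of the 10 as higher, Lamb2, Nid1 and Nid2, and 257 of all genes, and 4 of the 10 had an unadjusted p under 0.05.

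**Figure D1:**
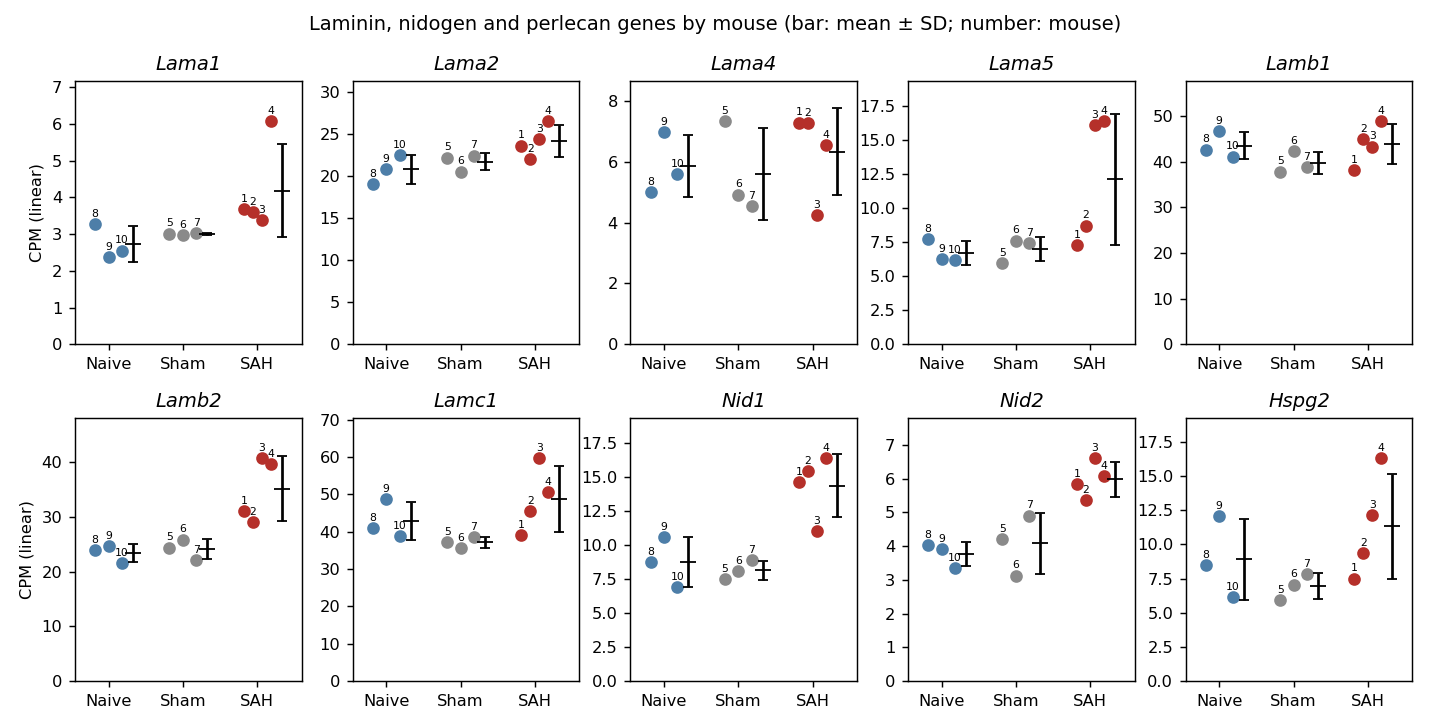
CPM of each of the 10 genes (vertical axes, each from 0) in every mouse, by group (Naive n = 3, Sham n = 3, SAH n = 4); points are mice, numbered, and bars are the group mean ± SD. The SAH mice lie wholly above the 6 control mice for Lama1, Lamb2, Nid1 and Nid2, and the SAH mice are widely spread for Lama5 and Hspg2.

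Among the alpha chains, Lama5 had the largest fold change and the widest spread. Its CPM in the SAH mice was 7.25, 8.72, 16.1 and 16.4, and in the control mice the lowest, median and highest were 5.98, 6.86 and 7.71. SAH mice 3 and 4 were far above every control mouse, mouse 2 was just above and mouse 1 lay within the control range. The means were 12.1 ± 4.81 CPM (SD, n = 4) and 6.86 ± 0.804 CPM (SD, n = 6), and the log2 fold change was 0.81 (SE 0.20, 95% interval 0.38 to 1.25, edgeR adjusted p = 0.0521). With 1 mouse left out at a time Lama5 passed in 5 of 10 fits; it was lost without SAH mouse 3 (edgeR adjusted p = 0.112), SAH mouse 4 (0.187), Sham mouse 5 (0.104), Naive mouse 9 (0.112) and Naive mouse 10 (0.112). Without the 3 mice with the highest choroid plexus markers the log2 fold change was 0.25 (edgeR adjusted p = 0.551). Of the mice left out there, SAH mice 3 and 4 had the highest Lama5 levels of all mice. Sham mouse 7 had 7.44 CPM, inside the range of the other control mice. The part of choroid plexus tissue in the Lama5 values was not tested.

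Lama1, the least abundant member per kb, had 3.68, 3.60, 3.39 and 6.08 CPM in the SAH mice. Its lowest, median and highest control values were 2.37, 3.00 and 3.27 CPM. Every SAH mouse was above every control mouse, mouse 4 by far the most. The log2 fold change of 0.55 (SE 0.17, 95% interval 0.18 to 0.91) did not pass (edgeR adjusted p = 0.116), although it passed with DESeq2 (adjusted p = 0.0694) and with edgeR when SAH mouse 1 (adjusted p = 0.0999969), mouse 2 (0.0872) or mouse 3 (0.0792) was left out. With SAH mouse 4 left out it was 0.31 (edgeR adjusted p = 0.290), and without the 3 mice with high choroid plexus markers 0.35 (0.473). Counts of this gene were 46 to 152 per library, so its values carry more counting error than those of the other alpha chains.

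Lama2, the alpha chain of the astrocyte side whose loss causes a congenital muscular dystrophy, had 23.6, 22.0, 24.4 and 26.5 CPM in the SAH mice and a control range of 19.1 to 22.5 CPM with a median of 21.5. The groups overlapped through SAH mouse 2, and the log2 fold change was 0.18 (95% interval 0.04 to 0.33, edgeR adjusted p = 0.180). It was 0.23 without that mouse (edgeR adjusted p = 0.0933), 0.13 without SAH mouse 4 (0.356) and 0.12 without the 3 mice with high choroid plexus markers (0.645). Lama4, the other endothelial alpha chain, had 7.30, 7.28, 4.24 and 6.56 CPM in the SAH mice and 4.55 to 7.35 CPM, median 5.30, in the control mice. SAH mouse 3, with the second highest Lama5 level of all mice, had the lowest Lama4 level of all mice. The log2 fold change of Lama4 was 0.16 with a 95% interval of -0.21 to 0.52 (edgeR adjusted p = 0.666). With 1 mouse left out it ran from 0.08 (without SAH mouse 2) to 0.31 (without SAH mouse 3) and passed in 0 of 10 fits; it was also over 1.5 times lower without SAH mouse 1 (0.09) or Sham mouse 7 (0.10) and higher without Sham mouse 5 (0.24). Without the 3 mice with high choroid plexus markers it was 0.30 (edgeR adjusted p = 0.544).

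The beta chain genes did not have like values after SAH. Lamb2 had 31.0, 29.1, 40.8 and 39.6 CPM in the SAH mice and 21.5, 24.1 and 25.8 CPM as the lowest, median and highest control values. All 4 SAH mice were above all 6 control mice. The means were 35.1 ± 5.93 CPM (SD, n = 4) and 23.7 ± 1.63 CPM (SD, n = 6), and the log2 fold change was 0.56 (SE 0.09, 95% interval 0.36 to 0.76, edgeR adjusted p = 0.00629). Lamb2 passed in 10 of 10 fits that left out 1 mouse, and without the 3 mice with high choroid plexus markers its log2 fold change was 0.32 (edgeR adjusted p = 0.0327).

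Lamb1, the more abundant beta chain, had 38.2, 44.9, 43.3 and 48.9 CPM in the SAH mice, against 37.8, 41.8 and 46.8 CPM as the lowest, median and highest control values. The groups overlapped almost entirely, and the log2 fold change was 0.08 with a 95% interval of -0.08 to 0.23 (edgeR adjusted p = 0.606), an interval whose upper end lies below the lower end of that of Lamb2. It was 0.02 without SAH mouse 4 and 0.14 without SAH mouse 1 (edgeR adjusted p = 0.900 and 0.290), and -0.01 without the 3 mice with high choroid plexus markers (0.980). Per kb, Lamb2 was 43.8% ± 3.61 (SD, n = 4) of the summed Lamb1, Lamb2 and Lamb3 level in the SAH mice, with a range of 39.05% to 47.8%, and 35.9% ± 1.79 (SD, n = 6) in the control mice, with a range of 33.95% to 38.7%. The groups did not overlap in this share, and no test was run on it. The main gamma chain gene, Lamc1, had 39.0, 45.5, 59.8 and 50.6 CPM in the SAH mice and 35.6, 38.7 and 48.7 CPM as the lowest, median and highest control values. SAH mouse 1 sat close to the control median, and the log2 fold change was 0.28 (95% interval 0.06 to 0.51, edgeR adjusted p = 0.189). It was 0.38 without that mouse (edgeR adjusted p = 0.0586), 0.18 without SAH mouse 3 (0.436) and 0.08 without the 3 mice with high choroid plexus markers (0.846).

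**Figure D2:**
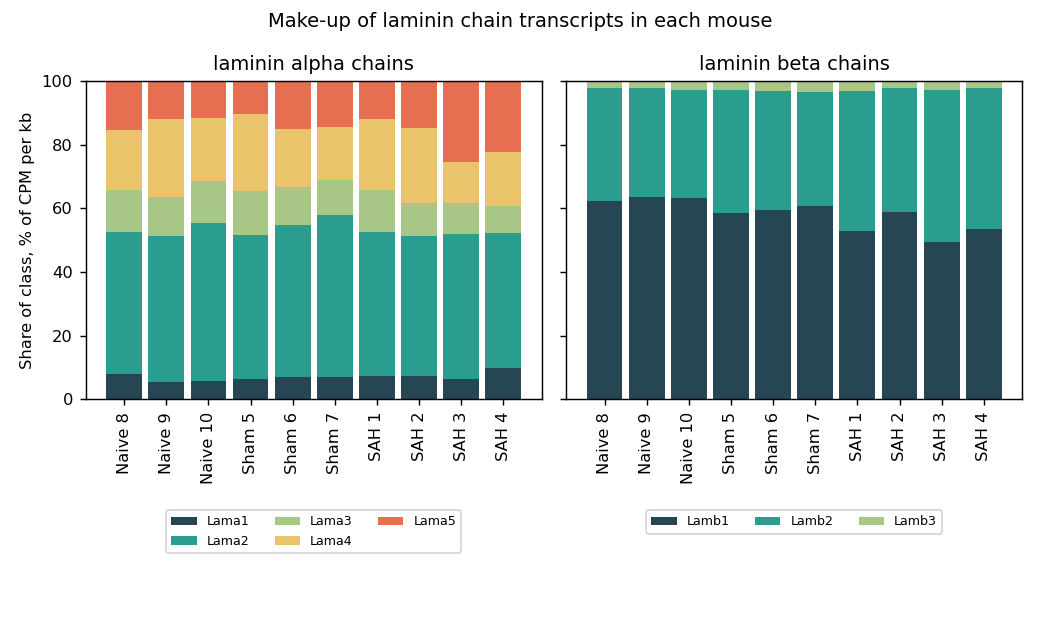
Share of each chain (percent of the summed CPM per kb of its class) in every mouse, for the alpha and beta chains; each bar is 1 mouse. Lamb2 takes 39.05% to 47.8% of the beta class in the SAH mice and 33.95% to 38.7% in the control mice, and Lama5 takes its largest alpha shares, 25.6% and 22.4%, in SAH mice 3 and 4.

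Within the alpha class, Lama2 held the largest share per kb in both groups, 44.3% ± 1.39 (SD, n = 4) after SAH and 47.4% ± 2.46 (SD, n = 6) in control. The Lama5 share was 11.9%, 14.9%, 25.6% and 22.4% in the 4 SAH mice, with a control mean of 13.1% ± 2.10 (SD, n = 6). Only SAH mice 3 and 4 thus had a large Lama5 share. Summed over each class, alpha chains were at 5.62 ± 0.565 CPM per kb after SAH and 4.62 ± 0.230 in control, and beta chains at 14.2 ± 1.56 and 11.7 ± 0.701 (SD, n = 4 and n = 6).

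Both nidogen genes rose. Nid1 had 14.6, 15.4, 11.01 and 16.4 CPM in the SAH mice, and 6.88, 8.39 and 10.5 CPM as the lowest, median and highest control values. The groups did not overlap, with SAH mouse 3 the nearest to the control mice. The means were 14.4 ± 2.34 CPM (SD, n = 4) and 8.42 ± 1.28 CPM (SD, n = 6), and the log2 fold change was 0.78 (SE 0.12, 95% interval 0.51 to 1.04, edgeR adjusted p = 0.00521), the lowest adjusted p of the members. Nid2 had 5.85, 5.37, 6.62 and 6.08 CPM in the SAH mice and 3.13, 3.97 and 4.91 CPM as the lowest, median and highest control values. Again no SAH mouse reached down into the control range, and the 4 SAH mice were close together. Its log2 fold change was 0.61 (SE 0.13, 95% interval 0.33 to 0.88, edgeR adjusted p = 0.0213). Both genes passed in 10 of 10 fits that left out 1 mouse, and also without the 3 mice with high choroid plexus markers (log2 fold change 0.86 for Nid1 and 0.59 for Nid2, edgeR adjusted p = 0.00184 and 0.0540). The summed nidogen level per kb was 3.18 to 3.95 CPM in the SAH mice and 1.82 to 2.54 CPM in the control mice, and Nid1 made up 65.6% ± 5.67 and 63.4% ± 4.05 of it (SD, n = 4 and n = 6), a difference smaller than the spread between mice.

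Hspg2, encoding perlecan, had 7.50, 9.38, 12.1 and 16.3 CPM in the SAH mice and 5.94, 7.45 and 12.1 CPM as the lowest, median and highest control values. Naive mouse 9 alone stood at the level of SAH mouse 3. The log2 fold change was 0.53 (SE 0.22, 95% interval 0.06 to 0.99), near the 0.56 of Lamb2 but with a larger error, and it did not pass (edgeR adjusted p = 0.235). It passed without SAH mouse 1 (log2 fold change 0.68, edgeR adjusted p = 0.0999), and was 0.29 without SAH mouse 4 (0.496). Without the 3 mice with high choroid plexus markers it was 0.12 (edgeR adjusted p = 0.904).

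**Figure D3:**
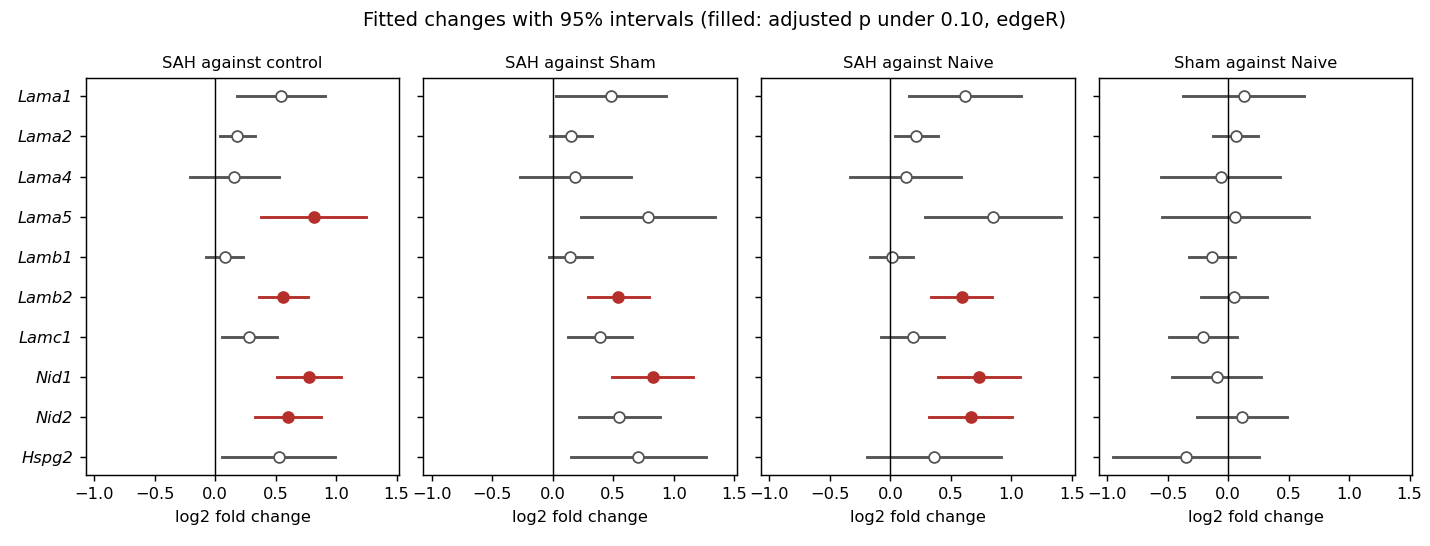
Log2 fold change of each gene with its 95% interval (horizontal axis) for SAH against control and for the 3 pairs of groups; filled points passed an adjusted p under 0.10. The values against Sham and against Naive lie above 0 for all 10 genes, and those of Sham against Naive lie on both sides of 0.

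Groups without overlap were found for 4 of the 10 genes, Lama1, Lamb2, Nid1 and Nid2, with every SAH mouse above every control mouse. Over all genes tested this share was 2.83%. The reverse, every SAH mouse below every control mouse, was seen in 0 of the 10 and in 2.37% of all genes.

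The comparison of SAH with Sham asks what perforation added to the operation. In the fit of all 3 groups, Lamb2 (log2 fold change 0.54, edgeR adjusted p = 0.0857) and Nid1 (0.82, 0.0499) were higher, 2 of 10 against 0.529% of all genes tested, and 0 were lower, against 0.192%. Unadjusted p was under 0.05 for 7 of 10, against 9.69% of all genes. The log2 fold change was above 0 for 10 of 10, with a median of 0.51. For Lama5 it was 0.79 (edgeR adjusted p = 0.295), for Hspg2 0.71 (0.380) and for Nid2 0.55 (0.204). In DESeq2, Lama5, Lamb2, Lamc1 and Nid1 passed, 4 of 10, and 225 of 15133 genes were higher, against 80 of 15134 in edgeR. The edgeR count moved with single mice: it was 4 without SAH mouse 1, where 129 of all genes were higher, and 0 without SAH mouse 4 or any 1 of the 3 Sham mice, where 6 to 18 were. It was 1, Nid1, without any 1 of the 3 Naive mice, where 38 to 48 of all genes were higher.

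Against the Naive mice, Lamb2 (log2 fold change 0.59, edgeR adjusted p = 0.0265), Nid1 (0.73, 0.0348) and Nid2 (0.66, 0.0601) were higher, 3 of 10 against 2.03% of all genes tested, with a median of 0.47 over the 10. DESeq2 called 4 of 10, adding Lama5, and 467 of 15133 genes as higher; the log2 fold change of Lama5 against Naive was 0.84 in edgeR (adjusted p = 0.140). None was lower in edgeR, against 0.965% of all genes, and unadjusted p was under 0.05 for 6 of 10, against 14.8%. The count was 0 without Naive mouse 8 or Naive mouse 10, where 87 and 176 of all genes were higher, in each case with at least 5 at an unadjusted p under 0.05. These values share the SAH mice with those against Sham, so the sets of values are not independent. Between Sham and Naive mice, edgeR and DESeq2 each called 0 of the 10, and 0 had an unadjusted p under 0.05, against 0.00661% of all genes called and 2.02% at that unadjusted p. Here 5 of 10 log2 fold changes were above 0, the median was -0.01, and the values ran from -0.35 for Hspg2 to 0.13 for Lama1. Lama1 in the 3 Sham mice was 3.01, 2.98 and 3.02 CPM, and Nid1 in them was 7.47, 8.05 and 8.85 CPM against 8.73, 10.5 and 6.88 CPM in the Naive mice, so Nid1 in the Sham mice lay inside the range of the Naive mice.

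Of 3 further laminin chain genes, Lamc3, which encodes a gamma chain, was higher after SAH, with 6.87, 8.57, 8.49 and 10.99 CPM in the SAH mice and 4.75 to 6.58 CPM in control mice (log2 fold change 0.68, SE 0.13, edgeR adjusted p = 0.0126). It did not pass with only Sham or only Naive mice as control, or without the 3 mice with high choroid plexus markers. Lama3 and Lamb3 had log2 fold changes of 0.0016 and 0.12 and did not pass (edgeR adjusted p = 0.996 and 0.753).

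Of 8 genes of basement membrane collagens, 3 were higher and none lower, with a median log2 fold change of 0.51. Col4a6, a minor chain of collagen IV, rose by a log2 fold change of 0.87 (edgeR adjusted p = 0.0135), with 3.24, 2.94, 1.87 and 3.16 CPM in the SAH mice and 1.23 to 1.73 CPM in control mice. Col4a5, another minor collagen IV chain, had a log2 fold change of 0.61 (0.00945), with 6.08 to 7.83 CPM and 3.86 to 5.24 CPM. Col18a1, whose product carries the endostatin fragment, had a log2 fold change of 0.72 (0.0110), with 5.37 to 6.64 CPM and 2.59 to 4.22 CPM. In all 3 genes every SAH mouse was above every control mouse. With only Sham mice as control 0 of the 8 collagens passed, and without the 3 mice with high choroid plexus markers 3 did. Col4a1 and Col4a2, the main collagen IV chains and named here for that role after their values were seen, were at 59.9 ± 16.2 CPM and 68.4 ± 13.6 CPM after SAH (SD, n = 4) against 49.7 ± 6.25 CPM and 58.2 ± 7.66 CPM in control (SD, n = 6), and did not pass (edgeR adjusted p = 0.362 and 0.354).

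Among 19 other basement membrane genes tested, 2 were higher and none lower, and the median log2 fold change was 0.12. Efemp1, a fibulin, had 20.3, 17.8, 14.1 and 18.03 CPM in the SAH mice against 8.07 to 10.1 CPM in control mice (log2 fold change 0.92, edgeR adjusted p = 0.000667). Tinagl1, a matrix protein that binds laminin and integrins, had 3.43, 6.11, 10.6 and 7.83 CPM against 2.03 to 4.38 CPM (log2 fold change 1.19, edgeR adjusted p = 0.0361), with SAH mouse 1 inside the control range. With only Sham or only Naive mice as control, 1 of the 19 passed.

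Of 10 laminin receptor genes tested, 2 were higher and 1 lower, with a median log2 fold change of 0.02. Itga1, an integrin alpha chain that binds collagen IV and laminin, had 8.51 to 10.9 CPM in the SAH mice and 6.64 to 8.12 CPM in control mice (log2 fold change 0.42, edgeR adjusted p = 0.0307). Bcam, a surface receptor for the Lama5 chain, had 9.09, 11.4, 11.9 and 16.8 CPM against 6.58 to 9.49 CPM (log2 fold change 0.61, edgeR adjusted p = 0.0464). Itgb4, an integrin beta chain of laminin-binding integrins, was lower, with 10.3 to 12.1 CPM against 12.7 to 16.1 CPM, and fell by 0.40 on the log2 scale (edgeR adjusted p = 0.0172). Dag1, which encodes dystroglycan and is named here for that role after its values were seen, was at 132.7 ± 4.85 CPM and 136.2 ± 11.5 CPM (SD, n = 4 and n = 6), with a log2 fold change of -0.04 (edgeR adjusted p = 0.773). The number of receptor genes called was 0 with only Sham mice as control, 1 with only Naive mice and 1 without the 3 mice with high choroid plexus markers.

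On the cell side of dystroglycan, edgeR called 0 of 14 genes of its glycosylation tested, with 1 at an unadjusted p under 0.05 and 0 called by DESeq2, and the median log2 fold change was -0.02. It called 0 of 11 genes of the dystrophin complex and its endfoot partners tested, with 4 at an unadjusted p under 0.05 and 1 called by DESeq2, and the median was 0.04.

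**Figure D4:**
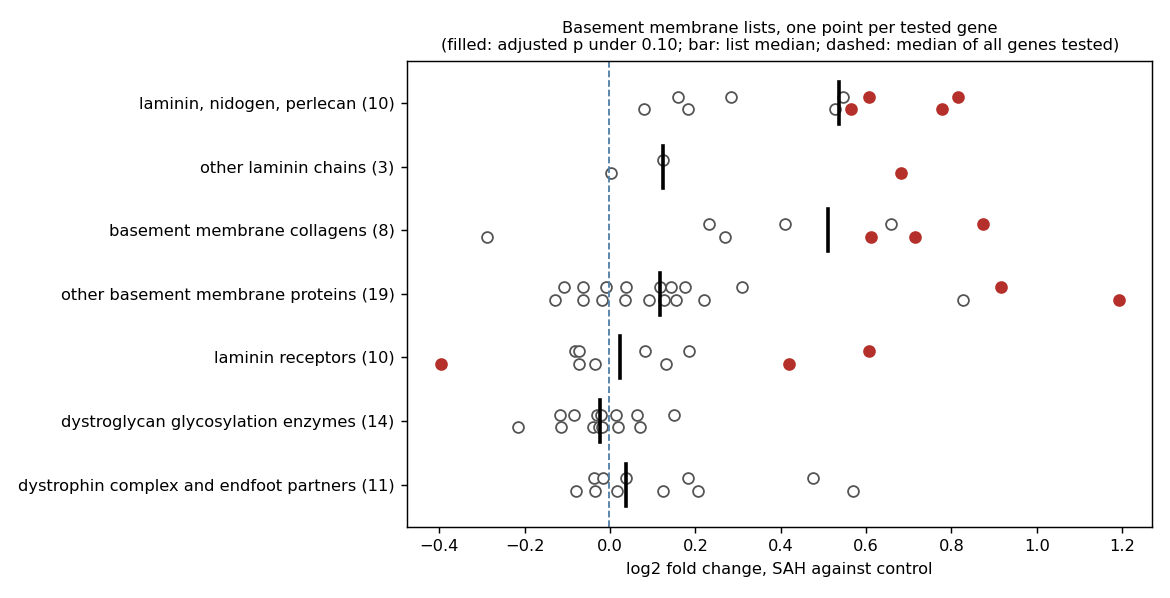
Log2 fold change of SAH against control for each gene tested (points), by group of basement membrane genes, with the median of each group as a bar and that of all genes tested as a dashed line; filled points passed an adjusted p under 0.10. The medians are 0.54 for the laminin, nidogen and perlecan genes and 0.51 for the collagens, and 0.12 or less for the other groups.

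The members did not vary together from mouse to mouse as one block. After the mean of each group was subtracted, the Pearson correlation of log2 CPM over the 10 mice was above 0 in 32 of the 45 pairs of members, with a median r of 0.29 and a range of -0.67, between Lama4 and Lama5, to 0.83, between Lamb1 and Hspg2. Lama5 went with Lamb2 (r = 0.81), Hspg2 (0.72) and Lamc1 (0.71). Nid1 went with neither Nid2 (r = 0.10) nor Lama5 (-0.13). These are descriptions over 10 mice whose values share libraries. Of 13813 genes compared in the same way, those most like each member, up to 3 named for each, had r between 0.943 and 0.986. As the highest of 13813 values over 10 mice, such r can also arise for unrelated genes, and the likeness was not tested. For the alpha chains they were Arhgap4, Myd88 and Gabpb2 for Lama1, Neto2, Tlr3 and Stard10 for Lama2, Chl1, 1110037F02Rik and Limk1 for Lama4, and Acap2, Map7 and Faah for Lama5. For the beta and gamma chains they were Lamc3, Hykk and 1700026D08Rik for Lamb1, Celf2, Brap and Sh2b3 for Lamb2, and Sgms1, Hmcn1 and Avl9 for Lamc1. For the others they were Rnf44, Med13 and Setd8 for Nid1, Slc12a4, Col8a2 and Cdc42bpg for Nid2, and Cyyr1 and Sorl1 for Hspg2. Of the genes named for likeness, Lamc3 and Hmcn1 were in the basement membrane lists used here.

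Some markers of vessel-associated cells were higher after SAH. Of 10 endothelial markers 4 were higher after SAH, with a summed level of 220.9, 267.4, 414.3 and 403.2 CPM in the SAH mice and 191.6 to 276.6 CPM in control mice. SAH mice 1 and 2 thus lay inside the control range. In SAH mouse 3, Slc2a1 alone made up 169.4 CPM of the sum, and Tek, at 10.3 CPM, was the lowest of all mice. Of 10 markers of pericytes and vascular smooth muscle 4 were higher, with sums of 205.6 to 276.1 CPM and 156.9 to 192.1 CPM. Of these markers only Acta2 and Tagln had every SAH mouse above every control mouse. The others, among them Pdgfrb, Rgs5, Kcnj8, Cspg4 and Higd1b, overlapped between the groups. Of 10 markers of meningeal and perivascular fibroblasts 9 were higher, with sums of 390.7, 361.5, 199.0 and 273.2 CPM in the SAH mice, 184.0 to 190.9 CPM in the Sham mice and 145.3 to 154.6 CPM in the Naive mice. The Sham and Naive sums did not overlap; 3 of the 10 fibroblast markers were higher in SAH against Sham in edgeR and 6 in DESeq2. Between Sham and Naive, edgeR and DESeq2 each called 0 of these markers, with 3 at an unadjusted p under 0.05, 10 of 10 log2 fold changes above 0 and a median of 0.45. The mice with the highest endothelial sums, SAH mice 3 and 4, were those with the highest Lama5 and Lamb2 levels, while Lama4 and Nid1 were lowest among the SAH mice, and Nid2 highest, in mouse 3. Every SAH mouse was above every control mouse both in Nid1 and in the fibroblast sum. Over the 4 SAH mice, mouse 3 was lowest in both, while mouse 4 had the highest Nid1 level and mouse 1 the highest sum. Igf2 alone made up 185.3 CPM of the sum in SAH mouse 1. Of 10 choroid plexus markers 0 passed in edgeR and 0 in DESeq2, with 3 at an unadjusted p under 0.05 and a median log2 fold change of 1.01. In SAH against Naive mice, 2 of these markers were higher in edgeR and 4 in DESeq2, 10 of 10 had an unadjusted p under 0.05 and the median was 2.23, beside the 3 members called there. In Sham against Naive mice 0 passed in edgeR and 0 in DESeq2, with 5 at an unadjusted p under 0.05 and a median of 1.62. No marker of these 4 lists was at 0 in every mouse. The part of any of these cell types in the members' values was not tested.

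**Figure D5:**
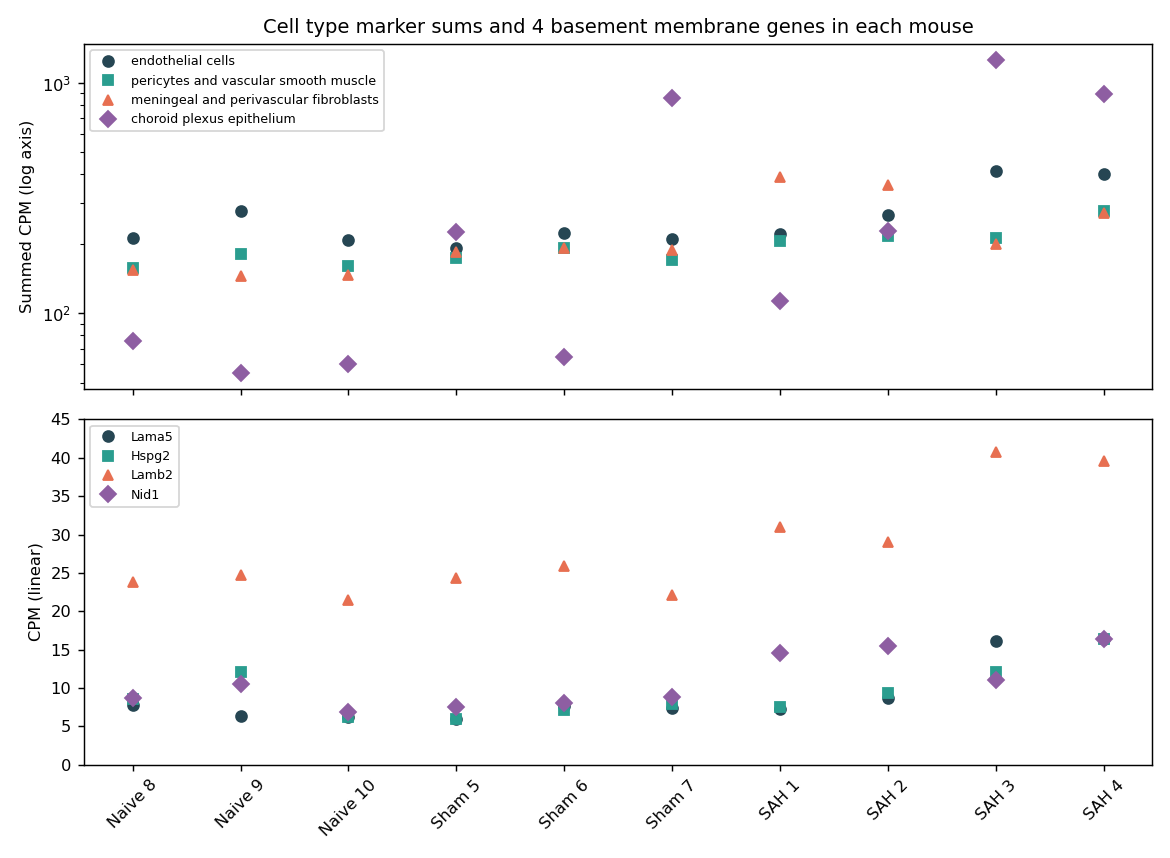
In every mouse, upper panel, summed CPM of the markers of 3 vessel-associated cell types and of choroid plexus (log axis), and lower panel, CPM of Lama5, Hspg2, Lamb2 and Nid1 (linear axis from 0). In the SAH mice the joint sum for pericytes and vascular smooth muscle and the fibroblast sum lie above those of all control mice. The endothelial sum does so only in SAH mice 3 and 4. The choroid plexus sum is high in SAH mice 3 and 4 and in Sham mouse 7. Lama5 and Lamb2 are highest in SAH mice 3 and 4.

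All 10 oligodendrocyte markers were lower after SAH, with sums of 4999 to 6364 CPM against 7348 to 10150 CPM in control mice. Astrocyte marker sums were 7490 to 9725 CPM in the SAH mice and 7573 to 8189 CPM in control mice, with 1 of 10 higher. Microglial sums were 437.4 to 533.3 CPM and 406.3 to 453.6 CPM, with 2 of 10 higher.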

How the data were processed

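Stranded total RNA libraries, depleted of ribosomal RNA, were made by the authors from bilateral hippocampi of 10 mice and sequenced as paired reads. Per the study's methods and the file headers, reads were aligned to mm9 with STAR and assigned to genes with featureCounts 1.6.2 by strand, dropping reads that matched several places or genes. The authors deposited raw counts per gene and the summed exon length, 1 table per mouse. The submitters' processing notes also name FastQC and DESeq2.

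From these counts, SAH (n = 4) was compared with pooled Sham and Naive (n = 6), and the 3 groups in pairs, with the quasi-likelihood test of edgeR 4.0.16 in R 4.3.3 (TMM scaling, filterByExpr with a minimum count of 10 and total of 15) and Benjamini-Hochberg adjustment over all genes tested, 14993 and 15134, at 0.10. The SE was the log2 fold change divided by the root of F. CPM used effective library sizes. DESeq2 1.42.0, other scalings, filters, controls and samples were alternatives. The fit was tested on simulated counts. The 10 genes, other gene lists and markers were chosen with earlier results of these data known. All members were named; of other lists, called genes, up to 4 each; for likeness, the 3 genes with the highest correlation and a mean over 1 CPM were listed. Depth limits the genes of lowest count, Lama1 and Col4a6 among them. Promoter windows came from RefSeq. Some genes are not reported here.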

Additional observations from a re-analysis of the deposited data

Results flagged for a closer look

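Of 20 groups of mice examined for a single distant value among the 10 genes, 1 held one, about the number that chance gives at 1 in 20. Lama1 in SAH mouse 4 was 6.08 CPM, while the other 3 SAH mice were at 3.39 to 3.68 CPM; its gap to the nearest was 0.892 of the group's range, above Dixon's critical value for 4 samples. Without that mouse the log2 fold change of Lama1 was 0.31.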

How the results depend on the processing

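No paired analysis was possible because the groups share no replicate numbers. Of 210 values of single members under alternatives, 209 were above 0, 12 lost and 7 gained a pass. The value not above 0 was that of Lamb1 without the 3 mice with the highest choroid plexus markers, a choice made after seeing the data (log2 fold change -0.01). The 210 values were not independent, since the fits shared most mice. Among them, the threshold of 0.05 and a robust form of the fit left every log2 fold change as in the main fit. With 1 mouse left out, calls ran from 3 to 7 members for SAH against control (7 without SAH mouse 1), from 0 to 4 against Sham and from 0 to 4 against Naive; from 3 to 5 collagens (5 without SAH mouse 1), 1 to 3 other basement membrane proteins and 1 to 4 receptors (1 of each without SAH mouse 4), and 0 to 1 dystrophin complex genes (1 without SAH mouse 1 or 2). With Sham mice alone as control, 0 members, 0 other laminin chains, 0 collagens, 1 other basement membrane protein and 0 receptors passed; with Naive alone, 0 other chains, 1 other protein and 1 receptor. Without the 3 mice named above, 0 other chains, 1 receptor and 1 dystrophin complex gene passed. DESeq2 called 4 other basement membrane proteins, 1 dystrophin complex gene and, against Sham, 4 members. Against Sham, 1 member passed at 0.05 and 0 in the fit of those groups alone. The causes were not tested. The low counts of Lama1, Nid2 and Col4a6 limit their precision.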
